A study of Rattus norvegicus with 12 samples.

Results

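Fractalkine and the other RNAs of neuron-microglia signalling were examined in hippocampal RNA as 10 genes given by name, namely Cx3cl1, Cx3cr1, Adam10, Adam17, Cd200, Cd200r1, Csf1, Il34, Csf1r and Tgfb1, among the 17494 genes counted. All 10 were present in the counts. The RNA came from 12 wild-type male Long Evans rats, 1 library per rat, each exposed at 10 weeks of age under isoflurane to 3 low-level blasts on consecutive days and sacrificed 29 weeks later. In 6 of them (blast-boldine) the chow held boldine, an alkaloid of the boldo tree that blocks connexin hemichannels, at 500 mg/kg from the second week after blast until sacrifice, and in 6 (blast-controls) the same chow held none. According to the paper, rats of both groups were also tested for object recognition and trained with footshocks in cued fear conditioning before sacrifice. Its methods name the boldine diet for a habituation before the procedures too, without saying for which groups. Rats without blast exposure are not analysed here, so that blast is shared by both groups, and the labels call the tissue brain where the paper's methods name hippocampus. The set was drawn up around Cx3cl1 with its difference between these groups already known, so that the differences given for the 10 genes between boldine and control are a description and no evidence of an effect.

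Microglia, the resident macrophages of the brain, are held in a surveying state in part by signals from neurons. Fractalkine (Cx3cl1) is a chemokine anchored in the neuronal membrane that reaches its microglial receptor Cx3cr1 either in place or after the metalloproteases Adam10 and Adam17 have cut it free. Cd200, a neuronal surface protein, restrains microglia through Cd200r1, and the cytokines Csf1 and Il34 share the receptor Csf1r, on which microglial survival depends. Tgfb1 maintains the expression program of microglia. The counts measure RNA, so that shedding and protein levels were not measured.

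The totals of counts on genes lay between 10148474 and 40850106 in 11 rats and at 74008 in blast-control rat 6. A gene with 3 counts, the smallest value taken as detected, stood at 47.5 CPM (the share of a library's counts, TMM-normalized) in rat 6 and at 0.0658 to 0.307 CPM in the others, limits that cover counting error only. In rat 6, 5 of the 10 genes had no count, namely Cx3cr1, Adam17, Cd200r1, Il34 and Tgfb1, Cd200 and Csf1r had 3, Csf1 had 6, Adam10 had 13 and Cx3cl1 had 26. The edgeR fits, levels and ratios were therefore also computed without rat 6, whereas DESeq2 and limma-voom were run with all 12 rats only. The suffixes of the library names run from 1 to 6, each on 2 libraries, which splits the rats into a set of 1, 7, 9, 20, 32 and 35 (library set 1) and a set of 4, 5, 6, 12, 17 and 19 (library set 2), with 3 rats of each treatment in each. The labels do not name this split. It was 1 of several that the suffixes allow, picked because it followed the first principal component of these data, of which it accounted for 94.8% (treatment, 1.59%) over 11 rats. Of 7 hippocampal marker genes in the counts, Spink8 alone was at 0 in any of the 11 deeper libraries, and their summed level lay between 1106 and 1603 CPM.

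The levels of the 10 genes, which the choice of the set did not use, were compared per length as RPKM (counts per kilobase of summed exon length, scaled to the library as for CPM) over the 11 rats without rat 6. Cx3cl1 stood highest at 109 ± 19.8 RPKM (SD, n = 11), followed by the other neuronal surface ligand, Cd200, at 50.8 ± 7.91 RPKM (SD, n = 11). The sheddase Adam10 measured 35.7 ± 1.64 RPKM and the receptors Csf1r and Cx3cr1 measured 32.95 ± 12.4 and 23.1 ± 8.10 RPKM. Il34 stood at 18.4 ± 10.3, Csf1 at 10.2 ± 2.68, Adam17 at 8.48 ± 0.877, Tgfb1 at 2.54 ± 1.34 and Cd200r1 at 0.593 ± 0.307 RPKM (SD, n = 11 throughout). Of the 9 steps in this order, 6 had a mean that differed from zero at an adjusted p under 0.05. The test was an exact two-sided sign-flip permutation of the log2 level, adjusted over 9 steps. The order came from the same 11 rats, so that the direction of each step was set before its test. Of the 6 steps, that from Cx3cr1 to Il34 had an exact permutation p of 0.156 within library set 1 alone, where it was 0.12 on the log2 scale and held in 4 of 6 rats. In set 2 alone the smallest p is 0.0625, so that no step could pass there. Cx3cl1 exceeded Cd200 in 11 of 11 rats, by 1.09 on the log2 scale (adjusted exact permutation p = 0.00176, from the smallest p the test allows). The steps that did not pass were Adam10 over Csf1r (0.22 on the log2 scale, higher in 5 of 11 rats, adjusted exact permutation p = 0.253), Il34 over Csf1 (0.63, 7 of 11 rats, adjusted exact permutation p = 0.174) and Csf1 over Adam17 (0.22, 6 of 11 rats, adjusted exact permutation p = 0.174). The fractalkine receptor was thus measured at a lower level than its ligand, and the CD200 receptor at a level near the limit of these libraries, with 3 to 33 counts per rat.

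**Figure D1:**
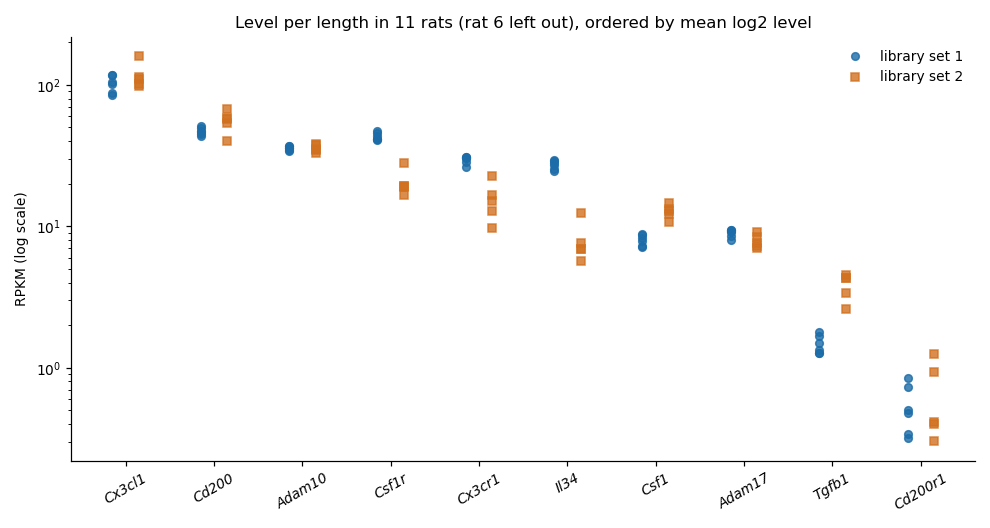
Level per length (RPKM, log scale) of each gene in the 11 rats without rat 6, ordered by mean log2 level, with circles for library set 1 and squares for library set 2. Cx3cl1 (84.5 to 159 RPKM) lies above every other gene, and Csf1r, Cx3cr1, Il34, Csf1 and Tgfb1 fall into 2 clusters that follow the library set.

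Among the 10 genes, the fractalkine ligand was that with the most blast-boldine rats outside the control range. Cx3cl1 (chromosome 19 of mRatBN7.2, 10227345 to 10236832, minus strand) measured 319.7, 358 and 485 CPM (lowest, median and highest of 6) in blast-controls and 258, 304 and 337 CPM in blast-boldine rats. With boldine, 5 of 6 rats had less Cx3cl1 than any control rat, and the exception, rat 19 at 337 CPM, exceeded only blast-control rat 1. The mean was 297 ± 29.1 CPM (SD, n = 6) against 379.8 ± 59.7 CPM (SD, n = 6). In edgeR this was -0.35 (SE 0.13) as a log2 fold change. These control values include rat 6, at 412 CPM from 26 counts. Without rat 6 the controls had a median of 356 CPM and a mean of 373 ± 64.4 CPM (SD, n = 5). The log2 fold change was then -0.33 (SE 0.12). In library set 1 all 3 blast-boldine rats lay under all 3 blast-controls, at 258 to 308 against 319.7 to 360.0 CPM. In library set 2 all 3 blast-boldine rats lay under both deep blast-controls, at 300.4 to 337 against 346 and 485 CPM. Of all genes tested, 3.98% were lower without overlap in set 1, 11.4% in set 2 and 0.706% in both. Since this difference led to the choice of the genes, no p is read as support for it. A gene with 5 or more boldine values under all control values occurred in 0.138% of all genes tested, and in 0.479% without rat 6. No member separated the 2 groups fully, as 0.0811% of all genes did with rat 6 and 0.146% without it. In these bulk libraries fewer cells of a type and less RNA per cell cannot be told apart. Cx3cl1 is expressed by neurons and endothelium, and the summed level of 9 neuronal markers was 5888 to 9136 CPM in 5 blast-controls without rat 6 and 6908 to 9178 CPM in blast-boldine rats, with 5888 to 8137 CPM in library set 1 and 8272 to 9178 CPM in set 2. Map2 alone measured 2142 to 3819 CPM, and the markers went both ways between sets. In set 2, 4 were higher and 3 lower at an adjusted p under 0.05, beside 32.8% and 33.3% of all genes. The summed level of 7 endothelial markers was 84.0 to 272 CPM in the 5 blast-controls and 82.2 to 285 CPM in blast-boldine rats. In rat 6 the neuronal sum was 20740 CPM, above that of every other rat. The part of either cell type in the values of Cx3cl1 was not tested.

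The receptor Cx3cr1 (chromosome 8, 119785726 to 119799431, minus strand) measured 13.0, 40.1 and 41.2 CPM in the 5 blast-controls without rat 6 and 16.96, 28.4 and 40.5 CPM in blast-boldine rats. The groups overlapped, and the log2 fold change was -0.16 (SE 0.33) with rat 6 and -0.21 (SE 0.31) without it. With the library set as a covariate and without rat 6 it was -0.12 (SE 0.16). Each of these values differed from zero by less than 1 SE.

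The sheddases varied least of the 10 genes over the 11 deep libraries, with an SD of the log2 level of 0.067 for Adam10 and 0.15 for Adam17. Adam10 (chromosome 8, 71346008 to 71477889, plus strand), which cuts fractalkine constitutively, measured 124, 130.0 and 139 CPM in the 5 deep blast-controls and 132, 138 and 144 CPM in blast-boldine rats. Boldine values exceeded all of these controls in 3 of 6 rats. In library set 2 all 3 blast-boldine rats stood above both deep controls, as in 10.9% of all genes, whereas in set 1 the groups overlapped, and the log2 fold change was 0.07 (SE 0.08) without rat 6. Adam17 (chromosome 6, 40872938 to 40920700, minus strand), the protease of stimulated shedding, measured 29.6, 37.3 and 38.4 CPM in the 5 deep blast-controls and 28.9, 33.6 and 38.7 CPM in blast-boldine rats, a log2 fold change of -0.07 (SE 0.11). With all 12 rats the log2 fold changes were 0.0047 (SE 0.12) for Adam10 and -0.018 (SE 0.19) for Adam17.

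Of the CD200 pair, the ligand Cd200 (chromosome 11, 55410278 to 55437525, plus strand) measured 89.4, 105 and 151 CPM in the 5 deep blast-controls and 97.5, 115 and 129 CPM in blast-boldine rats. All blast-boldine values lay inside the control range, and the log2 fold change was 0.10 (SE 0.17) with rat 6 and 0.04 (SE 0.14) without it. Cd200r1, its inhibitory receptor on microglia (chromosome 11, 55888223 to 55920941, minus strand), did not pass edgeR's filter on low counts. It had 4 to 33 counts in the 5 deep blast-controls and 3 to 18 in blast-boldine rats, which was 0.334 to 1.23 and 0.297 to 0.923 CPM. DESeq2, which kept the gene, put the log2 fold change at -0.30 with an SE of 0.61, and edgeR without the filter put it at -0.20 with an SE of 0.39, both with all 12 rats.

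The receptor Csf1r (chromosome 18, 54563990 to 54590415, plus strand) measured 62.0, 153 and 169 CPM in the 5 deep blast-controls and 69.7, 110.5 and 174 CPM in blast-boldine rats. Its ligand Il34 (chromosome 19, 38714990 to 38729226, minus strand), made mainly by neurons, measured 8.70, 37.5 and 44.1 CPM and 10.5, 26.4 and 44.7 CPM. Csf1 (chromosome 2, 195377220 to 195396291, minus strand), the other ligand, measured 28.1, 35.1 and 52.4 CPM and 28.6, 41.3 and 57.9 CPM. In each of the 3 genes the low and high values followed the library set and the treatment groups overlapped. The log2 fold changes without rat 6 were -0.15 (SE 0.33) for Csf1r, -0.15 (SE 0.52) for Il34 and 0.15 (SE 0.23) for Csf1, and with the library set as a covariate they were -0.09 (SE 0.11), -0.08 (SE 0.15) and 0.07 (SE 0.10).

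Tgfb1 (chromosome 1, 81196532 to 81212848, plus strand) had between 26 and 85 counts in the 11 deep libraries. It measured 1.84, 2.46 and 6.62 CPM in the 5 deep blast-controls and 1.84, 3.77 and 6.31 CPM in blast-boldine rats, with overlap. The log2 fold change of 0.25 (SE 0.45) without rat 6 became 0.07 (SE 0.18) with the library set as a covariate.

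**Figure D2:**
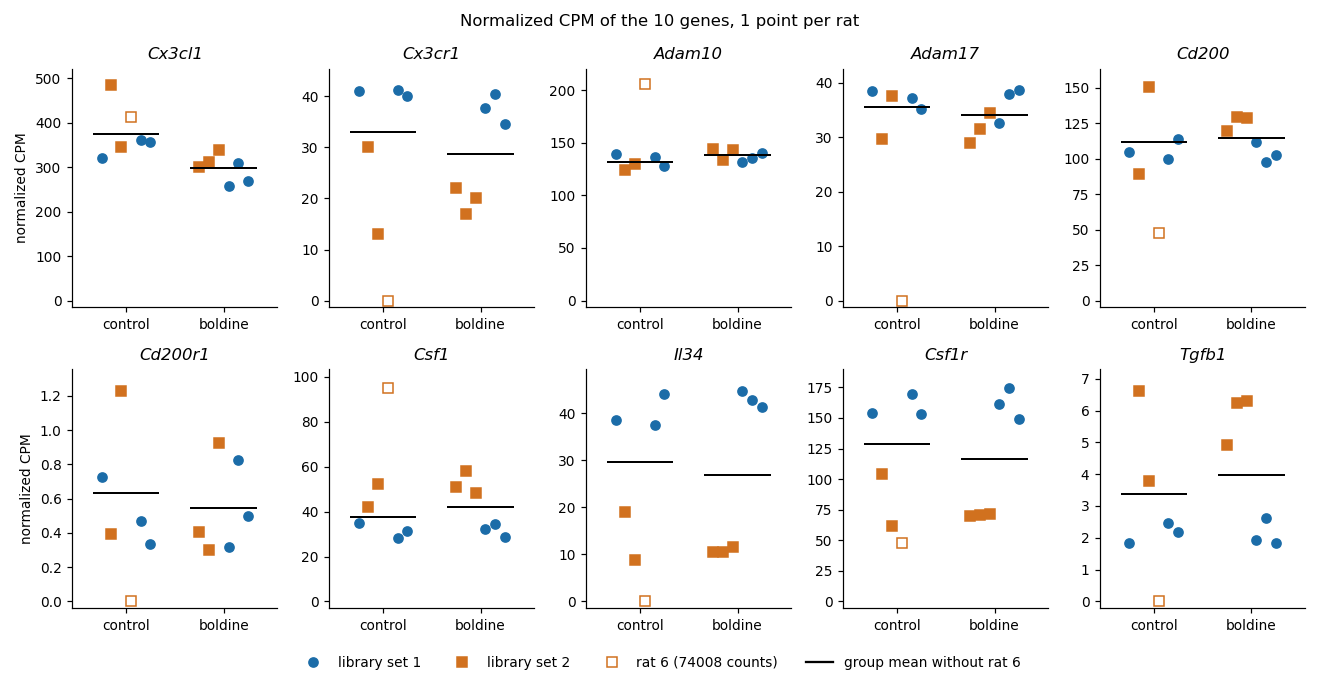
Normalized CPM of each of the 10 genes in blast-controls and blast-boldine rats, 1 point per rat, with circles for library set 1, squares for library set 2, an open square for rat 6 and a line at the group mean without rat 6. For Cx3cl1, 5 of 6 blast-boldine points lie under all control points. For Csf1r, Il34, Csf1, Cx3cr1 and Tgfb1 the points other than rat 6 separate by library set and overlap between treatments.

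Across all 12325 genes that passed the filter, none had a Benjamini-Hochberg adjusted p under 0.05 by the quasi-likelihood test of edgeR with 6 rats in each group, and that of each of the 9 members tested was 1.0. Without adjustment, 132 genes (1.07% of those tested) had a p under 0.05, 64 of them (0.519%) lower with boldine, and 1 of the 9 members, Cx3cl1, was among the latter. DESeq2 and limma-voom also gave no gene at an adjusted p under 0.05, with 85 (0.542%) and 115 genes under 0.05 before adjustment, which again held Cx3cl1 and no other member. The same member alone was named with the library set as a covariate (474 genes, 3.85%), without rat 6 (175 of 12529 genes, 1.4%) and with both changes (670 genes, 5.35%). Cx3cl1 was chosen for this contrast, so that nothing is read from its place among these genes. No p separated any of the other members from zero, which does not show that they were equal between the groups.

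**Figure D3:**
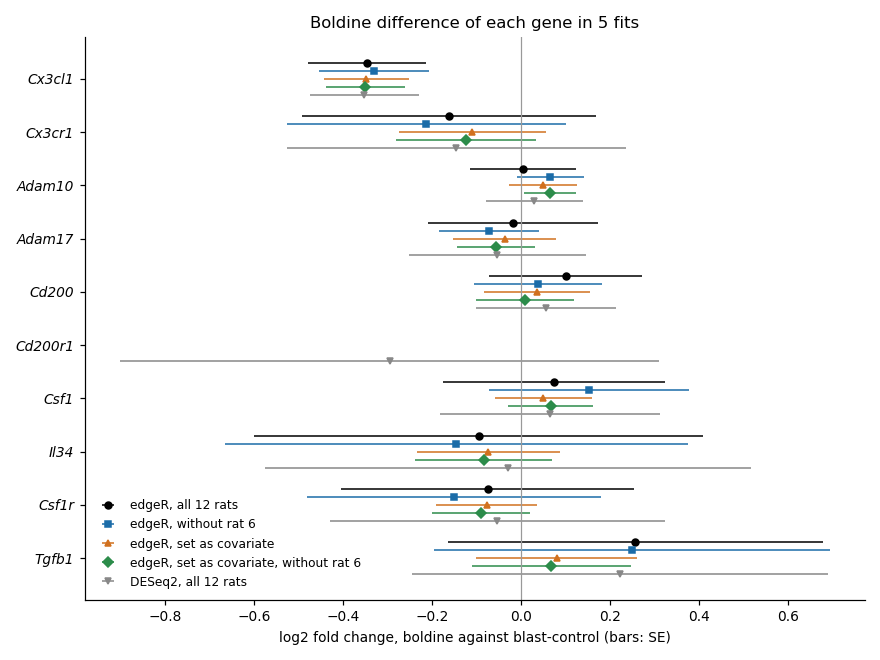
Log2 fold change of boldine against blast-control for each gene (points) with its SE (bars) in edgeR with all 12 rats, without rat 6, with the library set as a covariate, with both changes, and in DESeq2. Cx3cl1 lies between -0.35 and -0.33 in the 5 fits, the other points are within 0.30 of zero, and Cd200r1 has a value in DESeq2 only.

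Ligands, sheddases and receptors were related within each library as the log2 ratio of 2 genes per length, which does not depend on how libraries are scaled. The ratio of Cx3cl1 to Cx3cr1 had a mean of 2.39 ± 0.754 (SD, n = 5) in the deep blast-controls and 2.24 ± 0.632 (SD, n = 6) in blast-boldine rats, with the ligand above the receptor in every rat. It was lower in blast-boldine rats by 0.19 in library set 1 and by 0.36 in library set 2. The latter rests on blast-control rat 5, whose ratio of 3.52 went with 13.0 CPM of Cx3cr1, and without this rat the means of set 2 were 2.80 in both groups, with 1 control left. For the 5 other ratios, group means were compared by exact permutation (two-sided) over 462 assignments of 11 rats, with p adjusted over these 5. The ratio of Adam10 to Adam17 was 2.003 ± 0.105 (SD, n = 5) in controls and 2.14 ± 0.171 (SD, n = 6) in blast-boldine rats, a difference of 0.14 (exact permutation p = 0.141, adjusted 0.704). Those of Cd200 to Cd200r1, Csf1 to Csf1r, Il34 to Csf1r and Il34 to Csf1 differed by 0.24, 0.32, -0.06 and -0.38, with an adjusted exact permutation p of 0.825 each. Permuted within library sets, where 0.005 is the smallest p, the adjusted exact permutation p of the 5 ratios lay between 0.575 and 0.635.

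**Figure D4:**
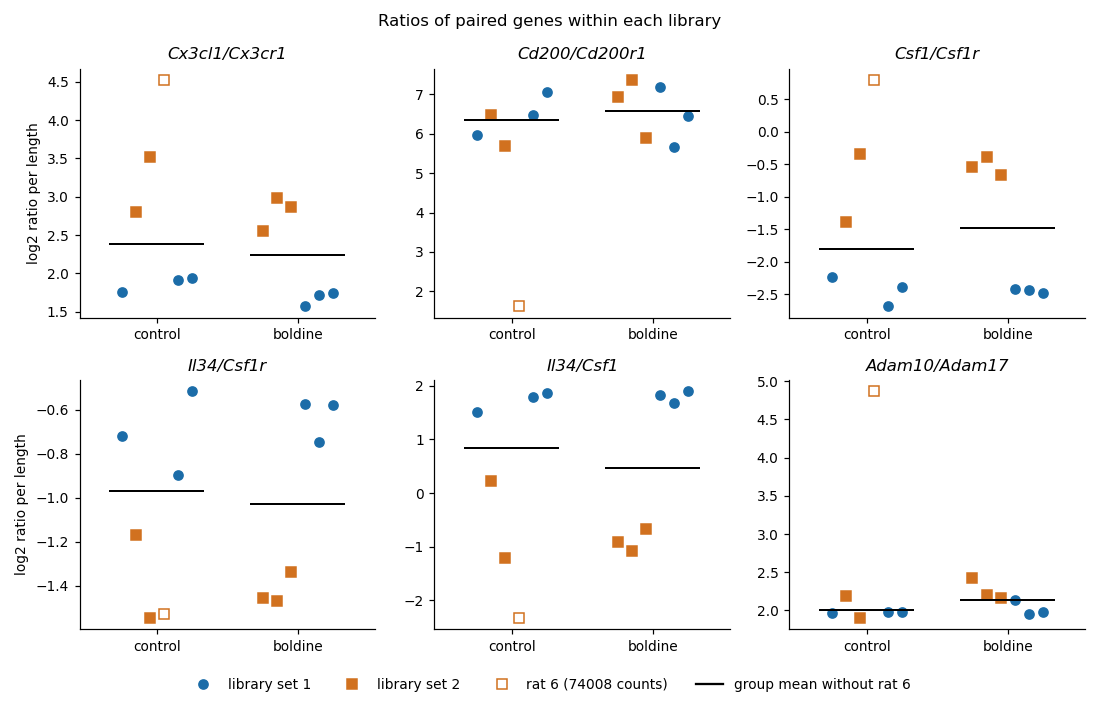
Log2 ratio per length of 6 gene pairs in each rat by treatment, with circles for library set 1, squares for library set 2, an open square for rat 6 and a line at the group mean without rat 6. Treatments overlap in every pair, and the ratio of Il34 to Csf1 lies between 1.51 and 1.90 in set 1 and between -1.21 and 0.23 in the deep libraries of set 2.

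The balance of the ligands of Csf1r followed the library set. Per length, Il34 exceeded Csf1 in 6 of 6 rats of set 1, by 1.77 ± 0.147 (SD) on the log2 scale, and in 1 of the 5 deep rats of set 2, where the mean was -0.73 ± 0.571 (SD). Il34 measured 37.5 to 44.7 CPM in set 1 and 8.70 to 19.1 CPM in set 2, and Csf1r measured 149 to 174 and 62.0 to 104 CPM. Cx3cr1 was also lower in set 2, at 13.0 to 30.1 against 34.7 to 41.2 CPM. Csf1 and Tgfb1 were higher in set 2, at 42.3 to 57.9 against 28.1 to 35.1 CPM and at 3.79 to 6.62 against 1.84 to 2.62 CPM. In these 5 genes the sets did not overlap, as was the case for 49.1% of all genes tested, so that this share is close to that of any genes. With treatment in the model, edgeR gave 5 of the 9 members an adjusted p under 0.05 for the set, against 66.1% of all genes, and since the split was picked on these data these calls are a description. The log2 difference of set 2 from set 1 was -1.79 (SE 0.17) for Il34, -1.09 (SE 0.12) for Csf1r, -0.93 (SE 0.17) for Cx3cr1, 0.68 (SE 0.11) for Csf1 and 1.36 (SE 0.18) for Tgfb1. It was 0.0069 (SE 0.076) for Adam10, which changes sign without rat 6 or with RLE scaling, where the median of all genes shifts to -0.14.

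Markers of cell types moved with the library set as well. The summed level of 11 microglial markers in the counts, among them Aif1, P2ry12 and Tmem119, was 399 to 442 CPM in set 1 and 210.4 to 290.0 CPM in the deep rats of set 2. Of the 11, 9 were lower in set 2 at an adjusted p under 0.05 and 1, Sall1, was higher (log2 difference 0.37), beside 33.3% of all genes lower and 32.8% higher. Aif1 (-0.20) was not called. The summed level of 7 endothelial markers was 82.2 to 122 CPM in set 1 and 210.5 to 285 CPM in set 2, with 6 of 7 higher in set 2, and that of 6 oligodendrocyte markers was 3944 to 6966 and 2815 to 4971 CPM, with 6 of 6 lower. Between treatments the microglial sum was 212 to 409 CPM in the 5 deep blast-controls and 210.4 to 442 CPM in blast-boldine rats. No marker of the 11 was at 0 in a deep library and none had an unadjusted p under 0.05 for treatment. The choroid plexus markers summed to 12.9, 15.1 and 1177 CPM in the 5 deep blast-controls and to 8.54, 444.5 and 1200 CPM in blast-boldine rats, with 0 of 5 under 0.05 before adjustment. The meningeal markers summed to 151, 218 and 362 CPM and to 175, 257 and 532 CPM, with a median log2 fold change of 0.62 beside 0.0046 over all genes and 1 of 6, Slc6a13, under 0.05 before adjustment. Astrocyte markers ranged from 3845 to 5813 CPM, and 9 leukocyte markers summed to 32.5 to 65.6 CPM, with Ccr2, Cd3g, Ms4a1, S100a8 and Nkg7 at 0 in at least 1 deep library. Lyz2 alone measured 23.9 to 61.0 CPM, and 2 of the 9 passed the filter on low counts. The part of the cell types in the values of the 10 genes was not tested.

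Of 58 genes of the wider pathways, 1 (1.72%) had an unadjusted p under 0.05 in edgeR, a share close to the 1.07% of all genes, and the same count held without rat 6. Of the genes that regulate shedding (17 tested, such as the fractalkine-cleaving cathepsin Ctss at 161 ± 54.8 RPKM and the protease inhibitor Timp2 at 70.3 ± 15.6 RPKM, SD, n = 11), 0 were higher and 0 lower at that threshold, with a median log2 fold change of -0.026 beside 0.0046 over all genes. The same counts held for 13 genes of TGF-beta ligands, activation and signalling (Smad4, 35.8 ± 1.78 RPKM, and the integrin Itgb8, 32.5 ± 7.32 RPKM), with a median of 0.034. They held for 8 genes of Csf1r signalling and alternative Il34 receptors (the adaptor Grb2, 80.2 ± 4.23 RPKM, and the receptor phosphatase Ptprz1, 74.0 ± 8.03 RPKM), with a median of -0.18, and for 4 genes downstream of Cd200r1 (Crk, 73.2 ± 6.06 RPKM, and Rasa1, 40.8 ± 6.82 RPKM), with a median of 0.14. Among 16 genes of other signalling pairs (Sirpa, the receptor of Cd47, at 82.9 ± 10.8 RPKM, and the Mertk ligand Gas6 at 53.3 ± 11.4 RPKM) the median was -0.042, and the chemokine receptor Cxcr4 had an unadjusted p under 0.05. Cxcr4 measured 3.36, 4.10 and 5.04 CPM in the 5 deep blast-controls and 4.41, 5.84 and 6.94 CPM in blast-boldine rats, and the groups overlapped. Its log2 fold change was 0.43 with an SE of 0.19, and its edgeR p of 0.0415 became 1.0 on adjustment. Before adjustment it was above 0.05 on leaving out any of 8 of the 12 rats.

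Across rats the members were also related to each other, after the mean of each treatment within each library set had been taken out, which removes the contrast that led to their choice. Of 8 pairs none had an adjusted p under 0.05 by exact permutation within these 4 cells, over 432 permutations. The pair with the largest r was Cx3cr1 with Csf1r, the receptors of microglia (Pearson's r = 0.92, exact permutation p = 0.0926, adjusted 0.741, Spearman's rho = 0.72, exact permutation p = 0.0949, n = 11). Without rats 4 and 5, the only deep blast-controls of set 2 and the farthest from the median, r was 0.37. Cx3cl1 and Cx3cr1 had r = 0.78 (exact permutation p = 0.310, adjusted 0.840, rho = 0.60, exact permutation p = 0.259, n = 11), and 0.18 without the same 2 rats, so that both relations rest on them. Il34 with Csf1r had r = 0.89 (exact permutation p = 0.630, adjusted 0.840, rho = 0.47, exact permutation p = 0.484), and -0.12 without rats 4 and 5. Cx3cl1 with Adam10 had r = -0.32 (exact permutation p = 0.410, rho = -0.42, exact permutation p = 0.238) and with Adam17 r = -0.30 (exact permutation p = 0.854, rho = -0.19, exact permutation p = 0.866). Cd200 with Cd200r1, Csf1 with Csf1r and Tgfb1 with Cx3cr1 had r of 0.40, -0.46 and 0.66. Without the 2 rats farthest from the median these were -0.43, -0.21 and -0.03.

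The genes whose pattern was most like that of Cx3cl1 over the 11 rats, by Pearson's r of log2 CPM centred within library set among 11144 other genes, were Tnk2 (r = 0.97), Ptpn23 (0.96), Ambra1 (0.96) and Zfp574 (0.95). Treatment is part of this likeness, and 11 rats leave many genes with a high r. Cx3cl1 was at 485 CPM in rat 4 and at 360.0 CPM or less in the other deep rats, and the ranking is given with rat 4 only. None of the other members that were ranked stood near these genes. Csf1r, the most like of these members, was at rank 749 (r = 0.67), and Cd200 had r = -0.57. Of the partners of Cx3cl1, Cx3cr1 was at rank 1458 (r = 0.57) and Adam17 at rank 5514 (r = 0.00032), whereas Adam10 had r = -0.61.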

How the data were processed

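The deposited values are raw counts of reads per gene. According to the methods, the authors cleaned and deduplicated reads in HTStream, mapped them with STAR 2.7.11b to mRatBN7.2 and counted them on RefSeq exons by strand with featureCounts (Subread 2.0.1). The summed exon length of each gene is a further deposited column, and positions are those of the deposited file. No member shares an exon base with another gene in it.

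Genes were tested with edgeR 4.0.16 in R 4.3.3 (quasi-likelihood, TMM, filterByExpr with a minimum of 10 counts, treatment as the only term, two-sided), and the SE is the log2 fold change over the square root of F. Log2 CPM used a prior count of 2 and ratios and per-length tests added 0.5 counts. DESeq2 1.42.0 and limma-voom (limma 3.58.1) were alternatives, with others given below. Permutation tests used Python 3.11.15 with scipy 1.17.1. The tests were tested on simulated data. The members, lists and library set were chosen with earlier results of these data known. Named beside the members are listed pathway genes with an unadjusted p under 0.05, the 2 of each list with the highest RPKM, and the 5 genes with a mean of at least 50 counts most like Cx3cl1, of which 1 is not reported here.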

Additional observations from a re-analysis of the deposited data

Results flagged for a closer look

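In 32 groups of values tested for a sample far from the others, 4 were found, where chance gives about 1 in 20. Of these, 3 were blast-control rat 6, the library of 74008 counts. Its Adam10 measured 206 CPM, from 13 counts, against 124 to 139 CPM in the other blast-controls, its Csf1 measured 95.0 CPM, from 6 counts, against 28.1 to 52.4 CPM, and its Adam17 measured 0 CPM, where 1 count would have been 15.8 CPM, against 29.6 to 38.4 CPM. In rat 4, the log2 ratio of Adam10 to Adam17 was 2.18 against 1.90 to 1.98 in the other deep blast-controls.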

How the results depend on the processing

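The log2 fold change of Cx3cl1 kept its sign in every alternative run, from -0.38 with upper-quartile scaling to -0.26 without blast-control rat 4. The number of members with an unadjusted p under 0.05 ranged from 0 to 1 when 1 rat was left out, and was 0 without blast-control rat 4 (Cx3cl1 at -0.26), blast-boldine rat 20 (-0.29) or blast-boldine rat 35 (-0.30); the number with an adjusted p under 0.05 was 0 in every fit. Leaving out 1 rat moved the log2 fold change across zero for Adam10 (-0.029 to 0.066), Adam17 (-0.072 to 0.028), Csf1 (-0.039 to 0.21), Il34 (-0.31 to 0.092) and Csf1r (-0.22 to 0.055), but not for Cd200 (0.038 to 0.24), Cx3cr1 (-0.35 to -0.055) or Tgfb1 (0.074 to 0.64, the latter without rat 4), and RLE and upper-quartile scaling gave -0.0100 and -0.022 for Adam10. The number of genes with an unadjusted p under 0.05 (132) was 85 in DESeq2, 254 without a filter on low counts, 474 with the library set as a covariate, 670 with the set and without rat 6, and 85 to 214 when 1 rat was left out. Cxcr4 had no unadjusted p under 0.05 in DESeq2 (log2 fold change 0.41), in limma-voom (0.39) or without any of rats 1, 5, 7, 9, 12, 17, 19 and 20 (p up to 0.112 in edgeR).

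With rat 6 kept, the difference between treatments was 1.03 for the ratio of Cd200 to Cd200r1 and -0.50 for that of Cx3cl1 to Cx3cr1. It changed sign for the ratios of Csf1 to Csf1r (-0.11), Il34 to Csf1r (0.035), Il34 to Csf1 (0.15) and Adam10 to Adam17 (-0.34). The step from Cd200 to Adam10 (0.35) then had an adjusted exact permutation p of 0.0659. In library set 1 alone the steps from Adam10 to Csf1r (-0.28) and from Csf1 to Adam17 (-0.16) turned, as did that from Il34 to Csf1 in set 2 alone (-0.73). The r of Cx3cl1 and Adam17 was 0.00032 when centred within library set only, which leaves treatment in. With that centring the smallest adjusted p, by random permutation within sets, was 0.106. It belonged to Il34 with Csf1r (r = 0.90) and to Cx3cr1 with Csf1r (r = 0.85). Without rats 4 and 5 these r were 0.20 and 0.24. The difference of Adam10 between library sets was -0.0013 without rat 6 and -0.12 with RLE scaling. Without rat 6, Cx3cl1 (0.23) joined the 5 members with an adjusted p under 0.05 for the set, and with RLE scaling Adam17 did (-0.32). The ratio of Cx3cl1 to Cx3cr1 without rat 5 and the lists without rat 6 were computed after the data were seen. The causes were not tested. No paired analysis was possible because the groups share no rat numbers. Rat 6 has too few counts to measure 5 of the 10 genes, and Cd200r1 is at the limit in the others. Rat 6 also differed in profile. Its neuronal markers summed to 20740 CPM, against 5888 to 9178 CPM in the other rats. Its astrocyte markers, at 4039 CPM, lay inside the range of the others.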
